A study of Mus musculus with 2 samples.

Results

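The 9 microRNA (miRNA) genes described here are the miR-200 loci Mir200a, Mir200b, Mir200c, Mir141 and Mir429, the miR-183 cluster Mir183, Mir96 and Mir182, and Mir375. They were chosen by gene symbol in the GENCODE M21 annotation, 9 of 2202 annotated miRNA genes. They were measured in left cerebral cortex of B6CASTF1/J mice (the F1 hybrid of C57BL/6J and CAST/EiJ; the labels name no treatment), aged 18 to 20 months, by sequencing of RNA shorter than 30 nt. The labels give 1 group of 2 libraries, numbered as biological replicates 1 and 2, with separate tissue records and 1 common donor record. All p-values concern only these 2 libraries, and a difference between them may be technical. The exact binomial and Fisher tests on reads allow for counting noise alone. One label field calls the animals male and another female, and sex was not used.

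miR-200 miRNAs are known as keepers of the epithelial state, acting against the transcription factors Zeb1 and Zeb2, and are abundant in epithelia, the olfactory system and the pituitary. The miR-183 cluster is transcribed as a unit in sensory cells of the retina, inner ear and olfactory epithelium, and mutation of Mir96 causes hearing loss. miR-375 is a miRNA of endocrine cells such as pancreatic islets and pituitary cells. None of them is regarded as a characteristic miRNA of cortical neurons or glia.

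The main mature arms show which loci can act on the same targets, because a miRNA recognises its targets mainly through its seed. The sequences are from RefSeq (GRCm38.p6), 5′ to 3′, with the seed, bases 2 to 8, in capitals. The 5 miR-200 arms, all from the 3′ side of the hairpin, come first and the 3 arms of the miR-183 cluster, all from the 5′ side, follow.
miR-200b-3p: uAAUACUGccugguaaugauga
miR-200c-3p: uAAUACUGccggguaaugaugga
miR-429-3p: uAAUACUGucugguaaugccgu
miR-200a-3p: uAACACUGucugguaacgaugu
miR-141-3p: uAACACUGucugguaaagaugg
miR-183-5p: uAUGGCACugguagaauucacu
miR-182-5p: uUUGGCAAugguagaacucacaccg
miR-96-5p: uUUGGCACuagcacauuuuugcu

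The miR-200 loci fell into 2 seed groups, AAUACUG for miR-200b, miR-200c and miR-429, and AACACUG for miR-200a and miR-141. Counted from 1 at the 5′ end, with the base of the arm named first written first, miR-200b-3p and miR-141-3p differ in the seed by U4C, as do miR-429-3p and miR-200a-3p. Outside the seed, miR-200a-3p and miR-141-3p differ by C17A and U22G and share a run of 16 bases. miR-200b-3p and miR-200c-3p differ by U11G and A22G over the 22 bases compared. In the miR-183 cluster every seed was different at full length. miR-182-5p and miR-96-5p share bases 2 to 7 and differ in the seed by A8C, while miR-96-5p and miR-183-5p differ in it by U2A. Among all mature miRNAs in the RefSeq table, miR-1271-5p was the only one outside the 9 genes to carry one of these 5 seeds, that of miR-96-5p, and its gene had 0 reads in both libraries.

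All 9 genes lie on the minus strand, where 46.5% of all annotated miRNA genes lie (mm10, GENCODE M21). The Mir200b-Mir200a-Mir429 cluster spans 1846 bp of chromosome 4. In the order of transcription it holds Mir200b (ENSMUSG00000065549.3, chr4:156055681-156055750), Mir200a (ENSMUSG00000065400.1, chr4:156054896-156054985) and Mir429 (ENSMUSG00000065427.1, chr4:156053905-156053987). All 3 lie within Ttll10, a protein-coding gene, and within the noncoding Gm13648 on the same strand. Mir200b and Mir200a are intronic in both, and Mir429 is exonic in Gm13648. The Mir200c-Mir141 cluster spans 477 bp of chromosome 6, with Mir200c (ENSMUSG00000065462.3, chr6:124718322-124718390) before Mir141 (ENSMUSG00000065474.1, chr6:124717914-124717985), both in an intron of the noncoding Gm15884. The nearest coding gene outside, Phb2, is on the opposite strand, 964 bp from Mir141.

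The Mir183-Mir96-Mir182 cluster spans 3820 bp of chromosome 6. It holds Mir183 (ENSMUSG00000065619.2, chr6:30169668-30169737), Mir96 (ENSMUSG00000065586.1, chr6:30169446-30169551) and Mir182 (ENSMUSG00000076361.1, chr6:30165918-30165992). Its hairpins lie in no annotated gene of another type, and the nearest coding gene is Nrf1, on the opposite strand, 12460 bp from Mir182. Mir375 (ENSMUSG00000065616.3, chr1:74900658-74900721) also lies in no such gene, 1350 bp from Cfap65 on the same strand. Hairpin GC content was 67.2% for Mir375 and between 45.7% (Mir183) and 55.1% (Mir200c) for the other 8 genes.

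Sense reads at miRNA genes numbered 2381663 in replicate 1 and 4436398 in replicate 2, and levels are given as CPM, reads per 1000000 of these totals. The limit used for a gene without a read is the level that 3 reads would give, 1.26 CPM in replicate 1 and 0.676 CPM in replicate 2. It is a rough limit, as the exact 95% interval for 0 reads in replicate 2 reaches 0.832 CPM. Intervals are exact (Clopper-Pearson) 95% intervals. They and the limits cover counting error only, since reads copied by PCR are not independent molecules. The tissue label was checked against markers. The neuron list of 8 loci summed to 90297 and 71445 CPM, although its hallmark Mir124a loci had at most 4 reads each. Most of that sum was Mir132, at 69646 and 43349 CPM, higher in replicate 1. Mir128-1, Mir128-2, Mir138-1 and Mir138-2 were higher in replicate 2. The Mir219a-2 and Mir338 pair of oligodendrocytes summed to 4678 and 3496 CPM. Astrocyte Mir29a and Mir23a summed to 28581 and 37874 CPM, and endothelial Mir126a stood at 17007 and 18138 CPM. Reads that align to several places, 35.6% of replicate 1 and 44.8% of replicate 2, are assigned to no gene. Whether loci present in several copies, such as the Mir124a loci, lost reads in this way was not tested. Unmapped reads were 30.8% of replicate 1 and 14.6% of replicate 2, and sense miRNA reads 29.6% and 36.2%. A search for 20-base runs found none of the 9 hairpins repeated in other annotated genes. At 18 bases 1 hairpin matched elsewhere (Mir183), and at 16 bases 8 of 9 did, Mir200a and Mir141 matching each other among them. Both shorter lengths were chosen after seeing the data.

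All 9 genes had reads, and together they held 1021 reads in replicate 1 and 1833 in replicate 2. Their summed level was 429 and 413 CPM, a mean of 421 ± 10.97 CPM (SD, n = 2), or 0.0429% and 0.0413% of miRNA reads. Mir375 alone held 62.9% of these reads in replicate 1 (95% interval 59.8 to 65.9) and 62.5% in replicate 2 (60.3 to 64.7). In a tissue sample, fewer cells of a type and less miRNA per cell cannot be told apart. Levels of different genes are read counts per hairpin, not divided by length, from main arms of 22 to 25 nt where printed. Whether different sequences were captured equally well was not tested, so differences between genes are differences in reads.

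Among the miR-200 loci, those with the seed AAUACUG had far more reads than those with AACACUG, in both clusters. Mir429 was read 99 times in replicate 1 and 139 times in replicate 2, so that it stood at 41.6 and 31.3 CPM. Mir200b had 31 and 206 reads, a level of 13.0 and 46.4 CPM, the widest gap between the libraries among the 8 genes with reads in both. Mir200c stood at 49 and 93 reads, 20.6 and 20.96 CPM, nearly the same level in each library. Those 3 loci share 1 seed, and their sum was 75.2 CPM in replicate 1 and 98.7 CPM in replicate 2, a mean of 86.9 ± 16.7 CPM (SD, n = 2).

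Mir200a, with the other seed, had 10 and 16 reads, a level of 4.199 and 3.61 CPM. Mir141 had 4 and 6 reads, 1.68 and 1.35 CPM, close to the limit set by 3 reads. The AACACUG pair summed to 5.42 ± 0.65 CPM (SD, n = 2), below every single AAUACUG locus in each library. Within the chromosome 4 cluster Mir200a took 7.14% of reads in replicate 1 (95% interval 3.48 to 12.7) and 4.43% in replicate 2 (2.55 to 7.10). Within the chromosome 6 pair Mir141 took 7.55% (2.09 to 18.2) and 6.06% (2.26 to 12.7). The AACACUG share did not differ detectably between the clusters in either library (two-sided Fisher's exact test on reads, p = 1 in replicate 1 and p = 0.594 in replicate 2), with intervals that leave room for differences of several percentage points.

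**Figure D1:**
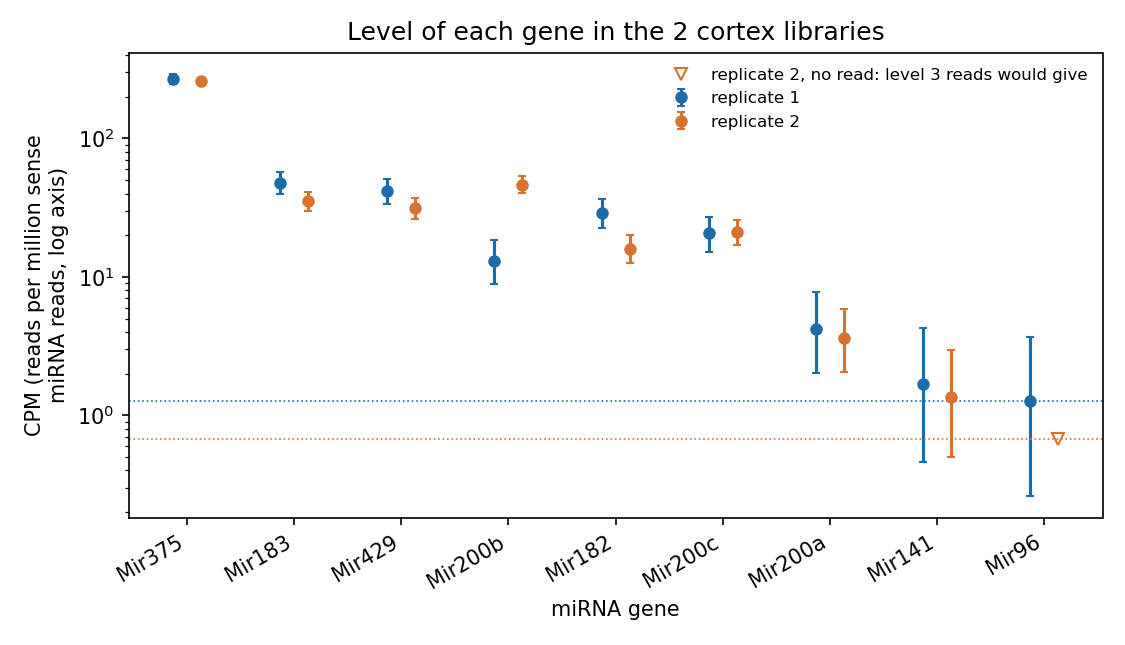
Level of each of the 9 genes in CPM on a log axis, with a point per library and exact 95% intervals, and dotted lines at the level that 3 reads give in each library. Mir375 stands at 270 and 258 CPM, 5 genes lie between 13.0 and 47.9 CPM, and Mir200a, Mir141 and Mir96 lie at 4.199 CPM or less, with Mir96 without a read in replicate 2 (open triangle at the 3-read level).

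In the miR-183 cluster the outer hairpins were read and the middle one hardly at all. Mir183 was read 114 times in replicate 1 and 156 times in replicate 2, which gave 47.9 and 35.2 CPM. Mir182 had 69 and 71 reads, 28.97 and 16.004 CPM. Both were higher in replicate 1 on the CPM scale.

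Mir96, only 186 bp downstream of Mir183 by the ends of their hairpins, had 3 reads in replicate 1 (1.26 CPM, 95% interval 0.260 to 3.68) and 0 in replicate 2 (95% interval up to 0.832 CPM, against 0.676 CPM for 3 reads). Mir96 took 1.61% of the cluster's reads in replicate 1 (95% interval 0.334 to 4.64). In replicate 2 its share was 0 of 227 reads, with a 95% interval up to 1.61%. The cluster summed to 78.1 CPM in replicate 1 and 51.2 CPM in replicate 2, a mean of 64.6 ± 19.04 CPM (SD, n = 2). The range of that sum overlapped the range of the chromosome 4 miR-200 cluster, 58.8 to 81.4 CPM. The Mir200c-Mir141 pair, at 22.3 CPM in both libraries, lay below both.

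Mir375 had the most reads of the 9 genes, 642 and 1146, a level of 270 CPM in replicate 1 (95% interval 249 to 291) and 258 CPM in replicate 2 (244 to 274). The levels of its libraries overlapped in their counting intervals, and the mean was 264 ± 7.95 CPM (SD, n = 2).

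Of the 2202 annotated loci 728 had a read, and Mir375 ranked 156th by mean level. Mir183 followed at rank 234, Mir429 at 242, Mir200b at 250, Mir182 at 261, Mir200c at 266, Mir200a at 378, Mir141 at 464 and Mir96 at 566. In the run from Mir183 to Mir200c, each gene's range over the libraries overlapped that of its neighbour in the order. Mir375 lay above all of them in both libraries, and Mir200a and Mir141 below all of them. Mir200a lay above Mir141 in both libraries, though their counting intervals overlapped in each.

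**Figure D2:**
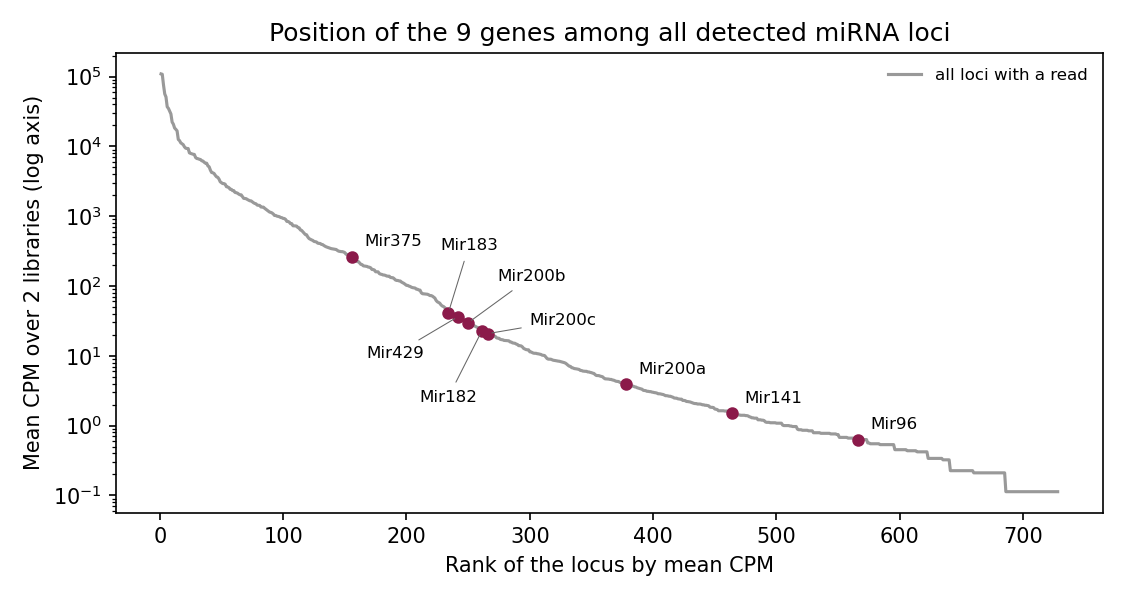
Mean CPM over the 2 libraries (log axis) against rank for the 728 loci with a read (grey line), with the 9 genes as points. Mir375 sits apart at rank 156, the points from Mir183 to Mir200c lie close together between ranks 234 and 266, and Mir96 at rank 566 lies in the tail of loci with few reads.

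Levels along the clusters differed between hairpins. In the 2 clusters with 3 hairpins the middle one, Mir200a or Mir96, had the fewest reads in each library. In the Mir200c-Mir141 pair the first hairpin held 92.5% of reads in replicate 1 (95% interval 81.8 to 97.9) and 93.9% in replicate 2 (87.3 to 97.7). Mir182, 3745 bp downstream of Mir183, had 37.1% of its cluster's reads in replicate 1 (30.1 to 44.5) and 31.3% in replicate 2 (25.3 to 37.7).

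**Figure D3:**
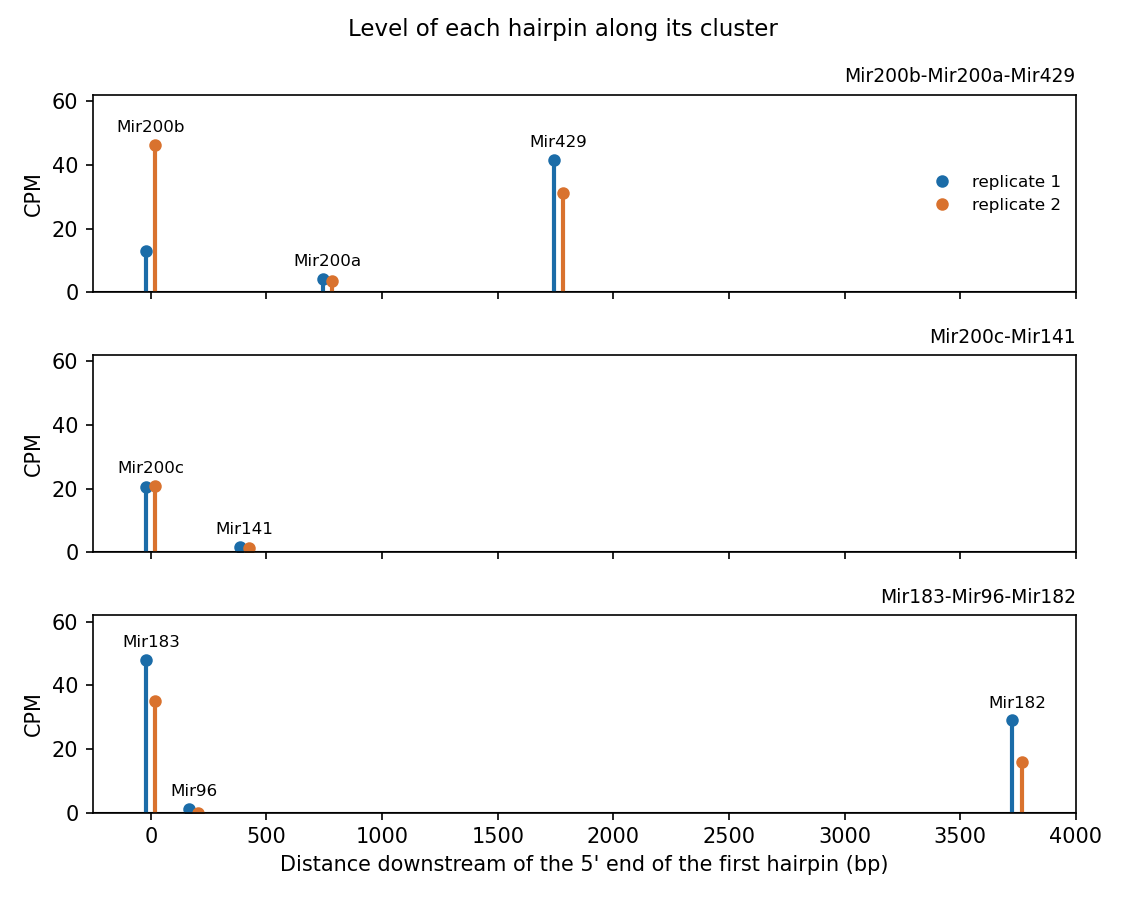
CPM of each hairpin in the 2 libraries against its distance in bp from the 5′ end of the first hairpin of its cluster, on common axes. Mir200b is the gene with the widest gap between the libraries (13.0 and 46.4 CPM), and the middle hairpins Mir200a and Mir96 are the lowest in their clusters.

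The 2 libraries were then compared with each other, as the only comparison the design holds for one gene. An exact binomial test on reads (two-sided, Benjamini-Hochberg over the 472 loci with at least 10 reads in total, TMM-scaled library sizes, threshold 0.05) allows for counting noise alone. It called 52.1% of all tested loci, so a call by it is common. Of the 9 genes, 8 had enough reads to be tested, and 4 of these passed, near that background. Mir183, Mir182 and Mir429 were higher in replicate 1, a direction called for 24.6% of tested loci, and Mir200b was higher in replicate 2, a direction called for 27.5%. The median log2 ratio (replicate 1 over 2) was 0.29 over the 8 genes and -0.07 over all tested loci.

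Mir200b differed by a log2 ratio of -1.81 ± 0.28 (counting SE), a 3.50-fold higher level in replicate 2 (adjusted binomial p = 3.26e-13). The size of its ratio ranked 26th among the 472 tested loci. Mir182 had a log2 ratio of 0.88 ± 0.24, higher in replicate 1 (adjusted binomial p = 0.000823), and Mir183 one of 0.47 ± 0.18 (adjusted binomial p = 0.0179). Mir429 reached 0.44 ± 0.19 (adjusted binomial p = 0.0469), a call lost with sums of sense reads as library sizes (adjusted binomial p = 0.0659) and with every locus that has a read in the test (0.0707). Mir375 had a log2 ratio of 0.09 (95% interval -0.05 to 0.23) with adjusted binomial p = 0.312, and with RLE size factors it became 0.16 and passed (adjusted binomial p = 0.0448). Mir200c had a log2 ratio of 0.00 (95% interval -0.53 to 0.51). For Mir200a the interval ran from -1.05 to 1.48 and for Mir141 from -1.93 to 2.42, so changes of over 2-fold in either direction were not excluded.

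Allowing for the spread between the libraries removed most of these calls. With a common dispersion estimated from these same libraries (coefficient of variation 0.343), edgeR's exact test called 0.424% of tested loci and 0 of the 8 genes. Mir200b was the only one of the 8 with an unadjusted p under 0.05 by that exact test (p = 0.0205, adjusted p = 0.711). With the lower median dispersion of DESeq2, 8.9% of loci were called, and Mir200b was the only one of the 8 genes among them (adjusted p = 0.00138). Each of these tests sets 1 library against 1 and holds no replicate evidence for a gene.

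**Figure D4:**
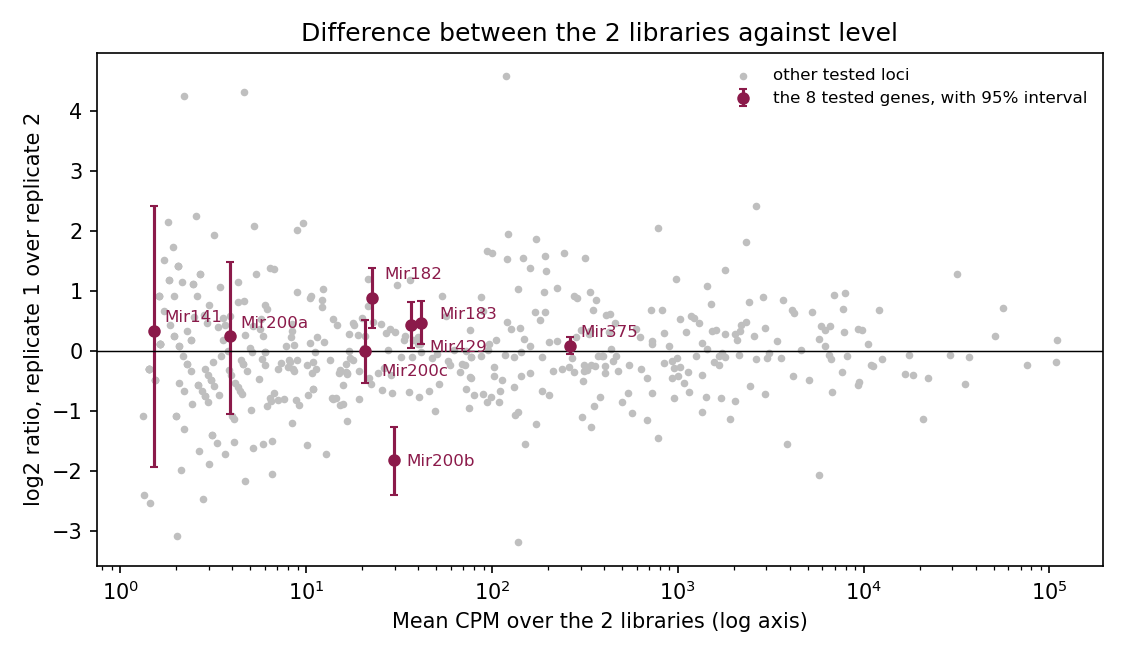
log2 ratio of replicate 1 over replicate 2 against mean CPM (log axis) for the tested loci with reads in both libraries (grey) and for the 8 tested genes with exact 95% intervals. Mir200b lies at -1.81, below 0 by more than its counting interval, while the other 7 lie between 0.00 and 0.88.

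Ratios within a cluster need no library size. They reuse the reads of the comparison above, in which Mir200b already had the widest gap. They therefore describe that gap against its neighbours and are no separate support for it. Mir200b and Mir429 are the pair of the chromosome 4 cluster whose order turned. Mir200b also stood below Mir200c, Mir182 and Mir183 in replicate 1 and above them in replicate 2. The hairpins of Mir200b and Mir429 are shown with both mature arms in capitals (RefSeq, GRCm38.p6, minus strand, 5′ to 3′). A count covers either arm, and the arms cannot be separated here.
Mir200b: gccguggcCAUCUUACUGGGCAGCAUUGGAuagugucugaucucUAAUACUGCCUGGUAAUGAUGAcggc
Mir429: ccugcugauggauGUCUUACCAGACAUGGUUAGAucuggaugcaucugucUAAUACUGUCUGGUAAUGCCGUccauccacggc

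Mir200b took 22.1% of the chromosome 4 cluster's reads in replicate 1 (95% interval 15.6 to 29.9) and 57.1% in replicate 2 (51.8 to 62.2). Mir429 took 70.7% (62.4 to 78.1) and 38.5% (33.5 to 43.7). The make-up of this cluster differed between the libraries (two-sided Fisher's exact test on reads, p = 3.65e-12, adjusted over the 3 clusters 1.09e-11). For Mir200c-Mir141 the same test gave an adjusted p of 0.74, and for Mir183-Mir96-Mir182 an adjusted p of 0.0826. These tests allow for counting noise alone, and the pairs and clusters share libraries.

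**Figure D5:**
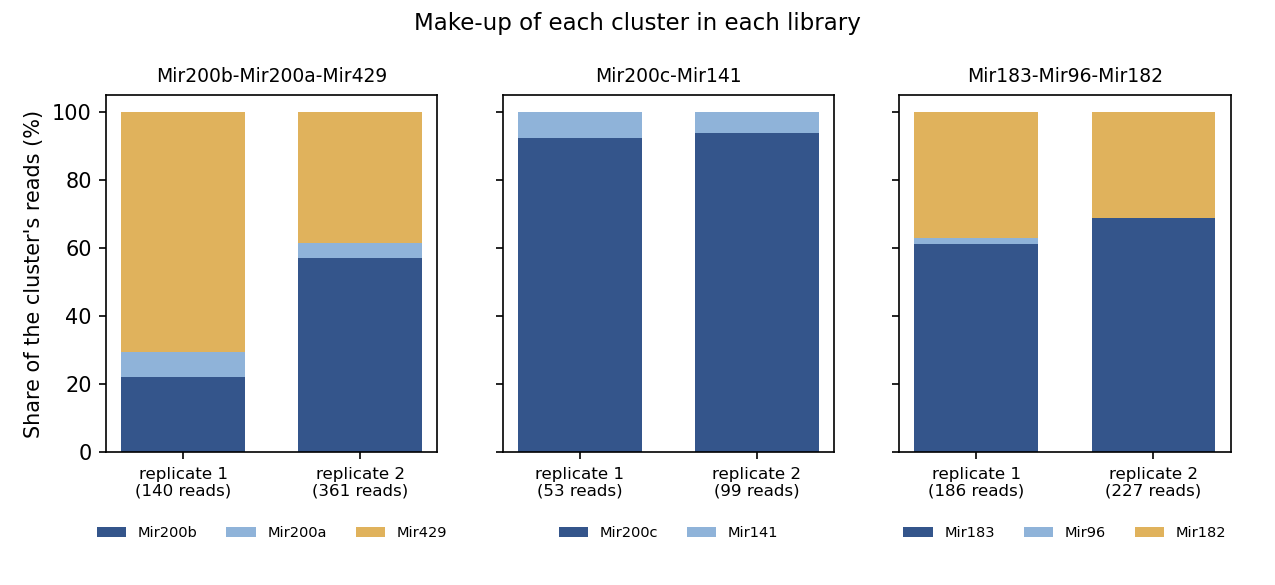
Share of each cluster's reads (%) held by each of its genes in each library, with the cluster's reads under each bar. In the chromosome 4 cluster Mir200b goes from 22.1% in replicate 1 to 57.1% in replicate 2, while Mir200c holds over 92% of its pair in both and Mir183 holds 61.3% and 68.7% of its cluster.

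There were 0.313 reads of Mir200b per read of Mir429 in replicate 1 and 1.48 in replicate 2, a 4.73-fold difference between the libraries (two-sided Fisher's exact test on reads, adjusted over 7 pairs, p = 1.56e-11). Against Mir200a the ratio of Mir200b was 3.10 and 12.9 (adjusted p = 0.00552), and against Mir200c, of the same seed on another chromosome, 0.633 and 2.22 (adjusted p = 6.72e-06). The pairs without Mir200b differed less. Mir200a per Mir429 was 0.101 and 0.115 (adjusted p = 0.836), Mir200c per Mir429 was 0.495 and 0.669 (adjusted p = 0.269), Mir200c per Mir141 was 12.3 and 15.5 (adjusted p = 0.836) and Mir183 per Mir182 was 1.65 and 2.20 (adjusted p = 0.269). Among 101 pairs of neighbouring loci within 10 kb on 1 strand whose members each had 10 or more reads per library, the log2 ratios of Mir200a and Mir200b were 2.05 apart, the 6th widest gap, against a median gap of 0.68. Mir182 and Mir183 were 0.41 apart (70th), and Mir429 and Mir200a 0.19 apart (92nd). Both gaps with Mir200a rest on its 10 and 16 reads, the first of them at the minimum of 10. Its log2 ratio had a counting SE of 0.58, and the ranks do not allow for such error.

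Other miRNAs of epithelium, gut, pancreas, pituitary and eye were read from a list of 15 loci, of which 14 had a read. Of 11 tested loci 7 passed the binomial test, 3 higher in replicate 1 and 4 in replicate 2, against 52.1% of all loci, and 0 passed edgeR's exact test. Mir31, found in keratinocytes and other epithelia, was at 2550 CPM in replicate 1 against 1017 CPM in replicate 2. Mir203, of stratified epithelium, stood at 177 and 62.7 CPM. Mir205, also of stratified epithelium, had 6 and 47 reads, 2.52 and 10.6 CPM. It was higher in replicate 2 like Mir200b, while Mir203 and Mir31 were higher in replicate 1.

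Mir7b, a member of the miR-7 family of neuroendocrine cells, stood at 1213 and 1302 CPM. Of the other listed miR-7 loci, Mir7-1 was higher in replicate 1 (69.7 and 37.4 CPM) and Mir7-2 in replicate 2 (64.2 and 88.6 CPM). Mir184, of the lens and cornea, stood at 122 and 165 CPM. The gut pair Mir192 and Mir194-2 stood at 10.1 and 12.6 CPM and at 20.99 and 27.5 CPM. Pancreatic Mir216a, Mir216b and Mir217 had at most 7 reads each in a library.

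Marker lists of choroid plexus and ciliated cells, blood, skin, liver and muscle had reads in both libraries. The choroid plexus and ciliated cell list of 6 loci, with reads at 5, summed to 1085 CPM in replicate 1 against 738 CPM in replicate 2. Of its 4 tested loci 3 passed the binomial test, all higher in replicate 1, and 0 passed edgeR's exact test. Mir34c, at 368 and 121 CPM, made up most of the gap, while Mir204 stood at 669 and 583 CPM and Mir449b had 0 reads in both libraries. The blood list of 5 loci, all with reads, summed to 264 and 128 CPM. There 2 of 5 tested loci passed the binomial test, both higher in replicate 1, Mir142 at 149.9 and 49.4 CPM and Mir451a at 49.97 and 22.5 CPM, and 0 passed edgeR's exact test. Mir486 stood at 27.3 and 27.5 CPM, and Mir144 and Mir223 did not pass either. The binomial test called 52.1% of all tested loci. The skin list of Mir203 and Mir205 summed to 180 and 73.3 CPM, with its genes in opposite directions, and Mir122 of liver stood at 58.4 and 76.0 CPM. The muscle list of 5 loci summed to 14.3 and 19.2 CPM, with Mir1a-1, Mir133a-1 and Mir133a-2 at 0 reads. Loss of reads that align to several places was not tested, so 0 reads at these loci do not show that the miRNA is absent. The part of these tissues in the levels of the 9 genes, and the cells that the reads of these lists came from, were not tested.

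Loci outside the 9 genes with the most similar pair of levels were found by Euclidean distance of log2(CPM + 1) over the 2 libraries, with the leading gene of each cluster as reference. For Mir375 these were Mir669c (distance 0.15) and Mirlet7a-1 (0.17), for Mir183 Mir190a (0.18) and Mir148a (0.25), for Mir429 Mir6769b (0.18) and Mir3086 (0.19), and for Mir200c Mir3064 (0.05) and Mir7j (0.16). With 2 libraries this measures mainly a similar level.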

How the data were processed

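For each library the authors deposited raw counts, whole numbers of reads for each miRNA gene (build mm10, annotation GENCODE M21, per the deposited notes). The sources used here do not name the aligner or the trimming. Counts on the gene's strand were used, and the 4 summary lines stayed out of library sizes and tests. All 2202 identifiers matched GENCODE M21, and RefSeq hairpins (GRCm38.p6) had the same coordinates for all 9 genes. CPM used the sum of sense counts.

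Effective sizes used TMM over the 472 loci with at least 10 reads in total (edgeR 4.0.16, R 4.3.3). Common dispersion came from 367 loci with at least 10 reads in each library, and DESeq2 1.42.0 gave the alternative dispersion. With 1 group, no quasi-likelihood test exists. Python 3.11.15 with scipy 1.17.1 did the rest. The binomial test was checked on counts simulated with counting noise alone, which cannot show how it behaves under spread between libraries. Genes, lists, pairs and tests were chosen with earlier results of these data known. Named are the 9 genes, the lists' genes, host and flanking genes, and the 2 nearest loci of each leading gene. Alternatives covered scaling, strand column, read minimum, dispersion and each library alone.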

Additional observations from a re-analysis of the deposited data

How the results depend on the processing

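Per 1000000 of all reads of a library, the Mir200b-Mir200a-Mir429 cluster stood at 23.5 CPM, Mir200c-Mir141 at 7.34, Mir183-Mir96-Mir182 at 20.8, the seed group AAUACUG at 29.0 and AACACUG at 1.77, since that total is larger by construction. In the column without regard to strand, Mir200c-Mir141 stood at 24.3 CPM and AACACUG at 6.27. Its totals are smaller (2184273 and 4051808 reads), and at the 9 genes it differs by at most 1 read a library. Why the totals are smaller was not tested. The count of loci past the test fell from 246 to 2 with edgeR's exact test and to 42 with the DESeq2 dispersion, and that of the 8 genes from 4 to 0 and 1, because these tests allow for spread between libraries. Mir200c turned to a log2 ratio of -0.027 with sums of sense reads. Of 55 alternative values of the log2 ratios, 44 kept direction and side of the threshold, and 9 kept the direction but no longer passed. RLE moved every log2 ratio by 0.07. No log2 ratio was computed per all reads of a library. On that scale the mean and SD (n = 2) were 13.5 ± 1.01 CPM for Mir183 and 11.8 ± 0.675 CPM for Mir429. They were 7.19 ± 1.97 CPM for Mir182 and 10.3 ± 9.18 CPM for Mir200b. Mir375 stood at 86.7 ± 9.76 CPM and Mir200c at 6.85 ± 1.06 CPM per all reads. On sense miRNA reads they stood at 264 ± 7.95 and 20.8 ± 0.275 CPM. How close the libraries lie for these genes therefore depends on the total used. Each level of a cluster or gene from 1 library alone lay within 1 SD of the mean, as any 2 values do. No paired analysis was possible because there is 1 group. Mir96, Mir141 and Mir200a are limited by depth.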

Other observations

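Counts on the strand opposite to the 9 genes were nearly absent. Mir200a had 1 such read in replicate 1 and 1 in replicate 2, below the 3 reads used as the limit for a count of 0. The other 8 genes had 0 in both libraries. The annotation places no gene on the opposite strand at any of the 9 hairpins.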
